A study of Homo sapiens with 9 samples.

Results

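The 46 genes described here encode the contractile actin and myosin machinery of the cell, the adaptor proteins of focal adhesions, and the SRF and YAP transcription factors that are coupled to this machinery. They were listed by name and not by a cutoff on their measured values, but with earlier results of these data known. They are 46 of the 60664 genes in the count table. They comprised 10 muscle-type contractile genes, 14 ubiquitous actomyosin genes, 5 adhesion adaptors, 3 genes for SRF and its MRTF cofactors, 3 genes for YAP, TAZ and TEAD1, 4 YAP targets, and 7 further regulators of the actin cytoskeleton (RHOA, RHOB, ROCK1, ROCK2, CFL1, PFN1 and DIAPH3). The mRNA of Huh-7 cells, a human hepatocellular carcinoma (HCC) cell line, was sequenced in wild type (WT) cells and in cells lacking the VTRNA1-1 gene (1-1 KO) or the VTRNA1-2 gene (1-2 KO), which encode the small non-coding vault RNAs vtRNA1-1 and vtRNA1-2. The study asks what these vault RNAs do in HCC cells. There were 3 libraries per line and no treatment, and all cells were grown in DMEM F12 with heat-inactivated serum and antibiotics. The WT and 1-1 KO cells came from another laboratory, whereas the 1-2 KO line is 1 clone derived from the WT cells by CRISPR/Cas9. Each knockout is therefore represented by 1 line, and an effect of the knockout cannot be told apart from other differences between the lines. The study calls the libraries of a line biological replicates, and the labels do not say whether they came from separate cultures. The p-values weigh differences against the spread between libraries of the same line, estimated over all 9 libraries, and not against a spread between independent lines.

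Actin filaments are pulled by non-muscle myosin II, which is switched on by phosphorylation of its regulatory light chains by MLCK or by the kinases ROCK1 and ROCK2, and the filaments are anchored to integrins by talin, vinculin, paxillin and zyxin. Polymerization of actin releases the cofactors MRTFA and MRTFB from monomeric actin, and these drive SRF on CArG boxes in the promoters of many contractile and adhesion genes. Tension on the same filaments keeps YAP and TAZ in the nucleus, where they act through TEAD factors on targets such as CCN1, CCN2 and ANKRD1. Smooth muscle cells and activated hepatic stellate cells are the best known users of the muscle-type genes, whereas hepatocytes rely mainly on the ubiquitous ones.

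Total counts per library were between 32384469 and 41782387. VTRNA1-1 had 0 or 1 counts and VTRNA1-2 had 0 counts in every library, WT included, so that these mRNA libraries do not check the genotypes. All 9 hepatocyte markers examined were above 3 counts in all lines, and their summed level, in counts per 1000000 (CPM), ranged from 15010 to 15960 in the WT libraries, from 31190 to 32130 in those of 1-1 KO and from 21200 to 23230 in those of 1-2 KO. Of 12 mesenchymal and smooth muscle cell markers, 9 were above 3 counts in WT, 9 in 1-1 KO and 10 in 1-2 KO. Summed, they ranged from 192.4 to 203.3 CPM over the WT libraries, from 302.4 to 317.0 CPM over those of 1-1 KO and from 123.2 to 132.2 CPM over those of 1-2 KO. LUM alone ranged from 150.7 to 162.2 CPM in the WT libraries, from 202.5 to 212.6 CPM in those of 1-1 KO and from 59.85 to 64.33 CPM in those of 1-2 KO. The defining smooth muscle markers were rare, with between 14 and 22 counts per library for the smooth muscle myosin MYH11, between 0 and 2 for the coactivator MYOCD and between 2 and 6 for LMOD1. DES, or desmin, was also rare but lower in 1-1 KO. It had between 11 and 24 counts per library in WT. In 1-1 KO it had between 0 and 4, and in 1-2 KO 26 or 27. Fewer cells of a type and less RNA per cell cannot be told apart in such bulk libraries. 1-2 KO replicate 1 stood apart from its own line. Its counts differed from those of the other 1-2 KO libraries with a chi-square of 14.8 and 15.8 per degree of freedom, whereas the remaining pairs of libraries within a line lay between 2.05 and 9.9. Without it, PXN and RHOB lost and CALD1 and ANKRD1 gained the call of upregulation in 1-2 KO compared to WT, and VCL and ROCK2 lost that of downregulation. CPM are given as mean ± SD over the 3 libraries of a line, and a gene is called upregulated or downregulated where edgeR's quasi-likelihood test gave an adjusted p under 0.05.

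Most of the contractile and adhesion genes were lower in 1-1 KO cells, whereas in 1-2 KO cells genes moved in both directions. All 46 genes passed the filter on low counts. Since they were listed with earlier results of these data known, the shares of all tested genes beside them are a description and not a test. In 1-1 KO compared to WT, 36 were downregulated, 5 were upregulated and 5 did not pass the test, where 30.9% of all 17207 tested genes were downregulated and 32.5% upregulated. The median log2 fold change of the 46 genes was -0.58, whereas that of all tested genes was 0.01. Of the 36, 13 fell by over 1 on the log2 scale, against 3.97% of all tested genes, and 0 of the 5 rose by over 1, against 9.4%. In 1-2 KO compared to WT, 16 were upregulated, 10 were downregulated and 20 did not pass the test, where 28.1% of tested genes were upregulated and 26.2% downregulated, and the median was 0.03, with 0.02 for all genes. By over 1 on the log2 scale, 2 rose and 1 fell in 1-2 KO, where 8.62% and 3.06% of tested genes did. The number of the 46 genes that passed the test was 41 in 1-1 KO, where 63.4% of tested genes did, and 26 in 1-2 KO, where 54.4% did. The 3 libraries of the knockout did not overlap the 3 WT libraries for 43 of the 46 genes in 1-1 KO, where 68.9% of all tested genes did not overlap, and for 28 in 1-2 KO, where 58.4% did not. The plot of fold changes gives every gene with its interval.

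**Figure D1:**
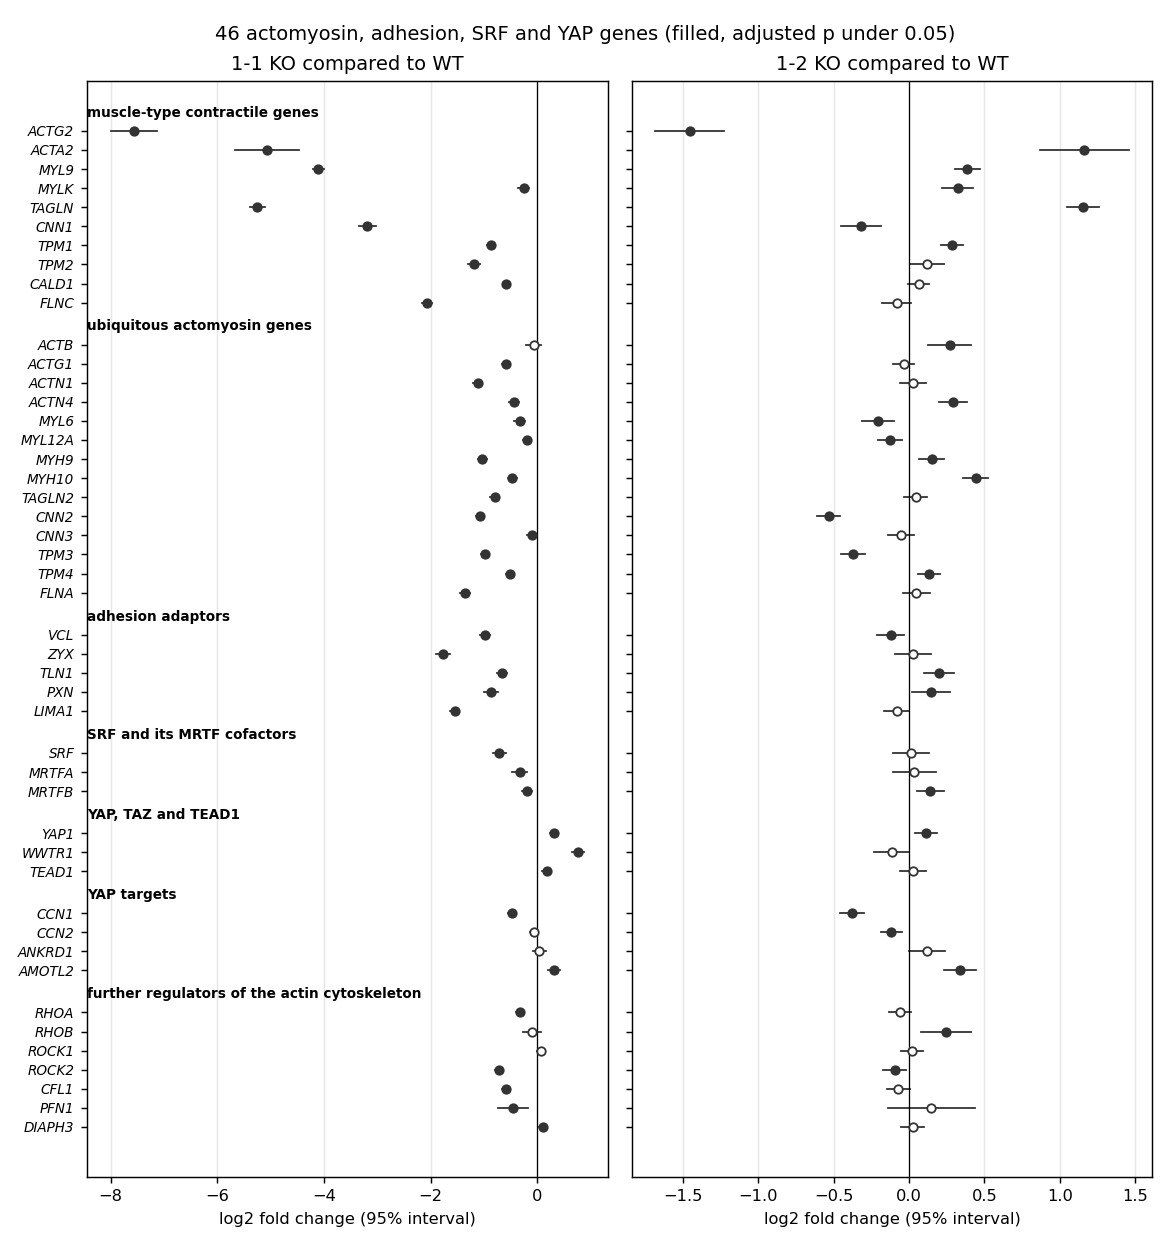
Log2 fold change of the 46 genes in 1-1 KO (left) and 1-2 KO (right) compared to WT, grouped by role, with the 95% interval of edgeR's fit over 9 libraries as a line. For ACTG2 and ACTA2 in 1-1 KO, which had few counts, that line is narrower than the exact interval of the summed counts. Filled points passed the test (adjusted p under 0.05), and the horizontal scales differ between the panels, from -7.56 for ACTG2 to 0.76 for WWTR1 on the left and from -1.46 for ACTG2 to 1.16 for ACTA2 on the right.

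The muscle-type contractile genes showed the greatest differences. All 10 were downregulated in 1-1 KO, 7 of them by over 1 on the log2 scale, and the median of the group was -2.63 on that scale. In 1-2 KO, 5 were upregulated, 2 were downregulated and 3 did not pass the test, with a median of 0.20. Downregulation in 1-1 KO was called for 30.9% of all tested genes, and 3.97% of all fell by over 1. In 1-2 KO, 28.1% of all were upregulated and 26.2% downregulated. The 250 bases before the RefSeq start sites (GRCh38.p14) of both smooth muscle actin genes are shown, because these genes were among the most strongly lowered in 1-1 KO and moved in opposite directions from each other in 1-2 KO. Capitals mark CArG boxes (CC, 6 A or T, GG) in ACTG2, which lies on the plus strand of chromosome 2 with this window at chr2:73892758-73893007. In ACTA2, on the minus strand of chromosome 10 with this window at chr10:88952774-88953023, capitals mark GGAATG, read on either strand, a motif that TEAD factors bind.
ACTG2: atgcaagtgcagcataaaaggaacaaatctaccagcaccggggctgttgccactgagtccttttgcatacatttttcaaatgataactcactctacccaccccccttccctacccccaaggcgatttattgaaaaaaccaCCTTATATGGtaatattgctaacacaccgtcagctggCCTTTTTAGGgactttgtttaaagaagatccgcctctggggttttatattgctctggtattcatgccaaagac
ACTA2: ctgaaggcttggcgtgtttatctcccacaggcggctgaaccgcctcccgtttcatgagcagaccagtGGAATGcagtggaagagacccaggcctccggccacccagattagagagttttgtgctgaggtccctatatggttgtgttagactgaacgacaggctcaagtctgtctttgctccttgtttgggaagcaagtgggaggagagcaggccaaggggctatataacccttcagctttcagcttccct
An exact CArG box was found in 1.16% of 34943 RefSeq promoters of this length. ACTG2 held 2 of them, 110 and 73 bases before the start, and MYLK held 1 in a window within the gene. The other 6 muscle-type genes with a promoter in the table held no exact box. Near matches were not counted, such as ccctatatgg and ccttgtttgg in the ACTA2 window shown, so that the absence of an exact box is not the absence of a CArG-like stretch. Another ACTA2 start site in the table held neither an exact box nor GGAATG. MYL9 and TAGLN were not in the table. A match in these windows is a description of the letters and was not tested for binding.

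ACTG2, the enteric smooth muscle actin (chromosome 2, 73892314 to 73919865 in GENCODE 44 on GRCh38), was at 17.0, 14.5 and 15.9 CPM in the WT libraries. In 1-1 KO the libraries held 2, 6 and 2 counts of it, or 0.05, 0.15 and 0.05 CPM. In 1-2 KO it was at 5.39, 6.48 and 5.44 CPM, between the other lines and without overlap with either. The log2 fold change was -7.56 (adjusted p = 1.36e-12) in 1-1 KO and -1.46 ± 0.11 (SE, adjusted p = 3.85e-08) in 1-2 KO. No SE is given for 1-1 KO, where that of the fit was too small for so few counts. The summed counts gave a 197-fold lower level in 1-1 KO than in WT, with an exact 95% interval of 107 to 411 that covers counting error alone. ACTA2, the vascular smooth muscle actin and a marker of myofibroblasts (chromosome 10, 88935074 to 88991339), was at 2.96, 3.15 and 2.22 CPM in WT. It had 3, 2 and 5 counts in the 1-1 KO libraries, or 0.07, 0.05 and 0.12 CPM, and rose to 5.51, 6.73 and 6.54 CPM in 1-2 KO, so that the 3 lines did not overlap. The summed counts were 34.9-fold lower in 1-1 KO than in WT, with an exact interval of 18.7 to 73.6. ACTA2 shares 1638 exonic bases with ACTA2-AS1 on the opposite strand, which had 8 counts over the 9 libraries against 1078 for ACTA2. The log2 fold change of ACTA2 was -5.06 (adjusted p = 1.68e-09) in 1-1 KO, again without an SE, and 1.16 ± 0.14 (adjusted p = 6.1e-06) in 1-2 KO.

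TAGLN, the actin-binding protein transgelin or SM22 (chromosome 11, 117199370 to 117207464), was at 374, 347 and 365 CPM in WT and at 10.0, 8.63 and 9.83 CPM in 1-1 KO. In 1-2 KO it reached 754, 839 and 820 CPM. Its level was thus 38.1-fold lower in 1-1 KO (log2 -5.25 ± 0.06, adjusted p = 5.09e-16) and 2.22-fold higher in 1-2 KO (log2 1.15 ± 0.05, adjusted p = 1.67e-10) than in WT. TAGLN shares 2233 exonic bases with PCSK7 on the opposite strand, which had 5988 counts over the 9 libraries against 138589 for TAGLN. MYL9, the regulatory myosin light chain of smooth muscle, followed the same order, with 140, 135 and 140 CPM in WT, 8.20, 7.66 and 8.16 CPM in 1-1 KO and 171, 185 and 185 CPM in 1-2 KO. It was 17.3-fold lower in 1-1 KO (adjusted p = 5.09e-16) and 1.31-fold higher in 1-2 KO (adjusted p = 1.09e-06). CNN1, the calponin of differentiated smooth muscle, was at 28.6, 27.9 and 28.6 CPM in WT, at 3.24, 3.09 and 2.99 CPM in 1-1 KO and at 21.2, 22.5 and 24.6 CPM in 1-2 KO, and fell in both knockouts. Its log2 fold changes were -3.19 ± 0.08 (adjusted p = 3.94e-13) in 1-1 KO and -0.32 ± 0.06 (adjusted p = 0.000492) in 1-2 KO. FLNC, the filamin of striated muscle, was at 461 ± 33.8 CPM in WT and at 110 ± 1.13 CPM in 1-1 KO, with a log2 fold change of -2.07 ± 0.05 (adjusted p = 2.81e-13). In 1-2 KO it was at 435 ± 6.21 CPM, a log2 fold change of -0.08 that did not pass the test (95% interval -0.18 to 0.01), although it did without WT replicate 2 (-0.13, adjusted p = 0.0246).

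The remaining muscle-type genes are also used by many non-muscle cells through other transcripts, which counts per gene do not separate, and they fell less in 1-1 KO. The tropomyosins TPM1 and TPM2, which wrap along the actin filament, had log2 fold changes of -0.88 ± 0.04 and -1.19 ± 0.05. The caldesmon gene CALD1 had -0.58 ± 0.03 and MYLK, which encodes the myosin light chain kinase MLCK, -0.25 ± 0.05 (adjusted p = 0.000364). In 1-2 KO, MYLK rose from 40.4 ± 1.61 to 50.6 ± 2.35 CPM and TPM1 from 204 ± 3.67 to 249 ± 4.83 CPM. TPM2 and CALD1 did not pass the test there (log2 0.12 and 0.06). TPM2 passed it without WT replicate 3 (0.15, adjusted p = 0.0196) or 1-2 KO replicate 3 (0.16, adjusted p = 0.0326), and CALD1 without 1-2 KO replicate 1 (0.08, adjusted p = 0.047). Beside these values, 4 of the 8 mesenchymal and smooth muscle cell markers that passed the filter were upregulated and 1 downregulated in 1-1 KO, as were 4 and 2 in 1-2 KO. The marker downregulated in 1-1 KO was DES. The lower sum of these markers in 1-2 KO went with LUM, at 157 CPM on average in WT and 62.1 in 1-2 KO, whereas COL1A2 was at 19.5 and 38.4 CPM. Of the 9 hepatocyte markers, 8 were upregulated and 0 downregulated in 1-1 KO, and 4 and 3 in 1-2 KO, where ALB (2532 and 4739 CPM in WT and 1-2 KO) and AFP (1759 and 7419 CPM) carried the higher sum. The part of either list in the muscle-type genes was not tested. The plot by library shows the 10 genes side by side.

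**Figure D2:**
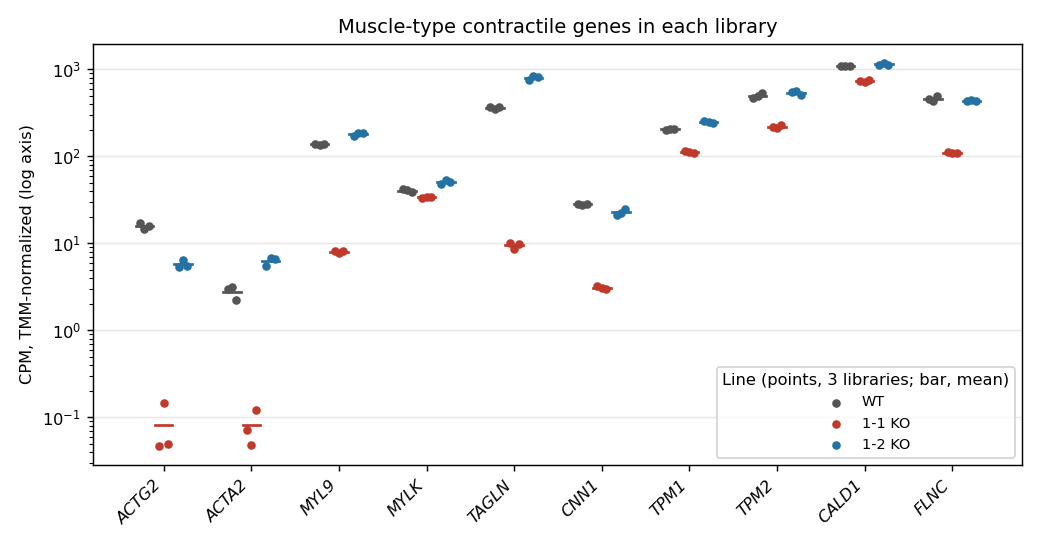
Level of the 10 muscle-type contractile genes in each of the 9 libraries, as CPM with TMM-normalized library sizes on a log axis; points are libraries and bars are means of 3. The 1-1 KO libraries lie below all WT libraries for all 10 genes, from 0.08 CPM on average for ACTG2 to 732 CPM for CALD1, and the 1-2 KO libraries lie above all WT libraries for ACTA2, MYL9, MYLK, TAGLN, TPM1 and CALD1.

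The muscle-type members were weighed against their ubiquitous relatives as CPM per kb of annotated exon, which allows only roughly for unequal length. The length merges all annotated exons of a gene, for example 3183 bases for TPM2 and 15130 for TPM3, and not those of the expressed transcripts. Levels of different genes, and the shares below, therefore also depend on the annotation. On this scale Huh-7 WT cells used few muscle actins, with 4.15 ± 0.34 CPM per kb of ACTG2 and 0.49 ± 0.09 of ACTA2 beside 912 ± 78.5 of ACTB and 690 ± 16.3 of ACTG1. The 4 muscle actins ACTG2, ACTA2, ACTC1 and ACTA1 made up 0.31% ± 0.03 of the 6 actins in WT, 0.0062% ± 0.0019 in 1-1 KO and 0.25% ± 0.03 in 1-2 KO. The makeup of the muscle actins differed between the lines, since ACTG2 was the highest of the 4 in WT, whereas ACTG2, ACTA2 and ACTA1 had 1.51, 1.11 and 1.08 CPM per kb in 1-2 KO. MYL9 was 8.45% ± 0.31 of the regulatory light chains (with MYL12A and MYL12B) in WT, 0.55% ± 0.01 in 1-1 KO and 12.0% ± 0.35 in 1-2 KO. TAGLN was 19.1% ± 0.75 of the transgelins (with TAGLN2) in WT, 1.07% ± 0.06 in 1-1 KO and 33.7% ± 0.53 in 1-2 KO. CNN1 was 3.62% ± 0.13 of the calponins in WT, 0.61% ± 0.02 in 1-1 KO and 3.58% ± 0.27 in 1-2 KO. In each of these families the 1-1 KO libraries lay below all others. The shares of the tropomyosins TPM1 and TPM2 (58.2% ± 1.14, 50.3% ± 1.47 and 61.5% ± 0.775, in the order of WT, 1-1 KO, 1-2 KO) and of FLNC among the filamins (16.1% ± 0.25, 9.76% ± 0.19 and 15% ± 0.28) differed less between the lines. Actins and their processed copies share long stretches of sequence, and how reads matching several places were counted is not given in the sources used here.

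**Figure D3:**
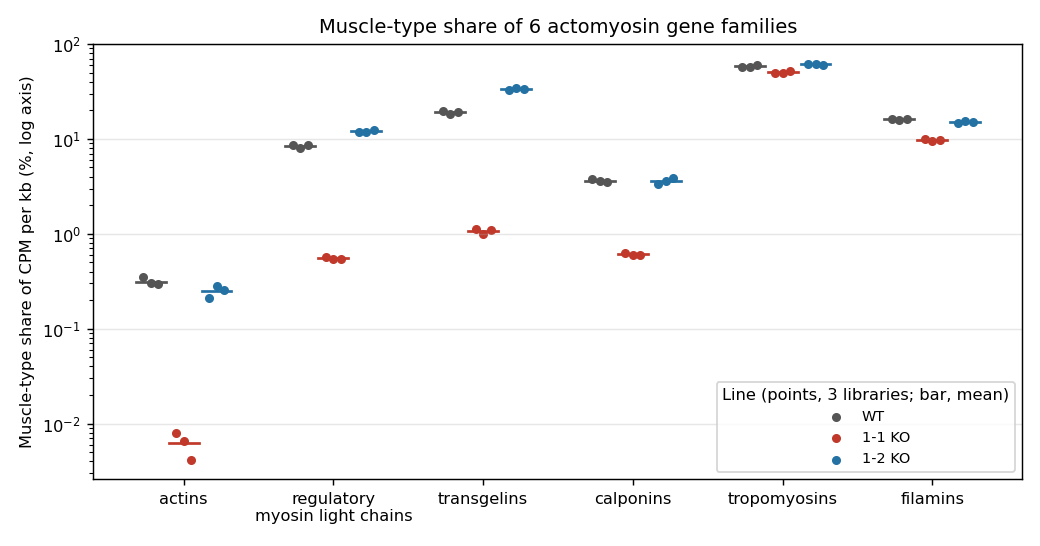
Share of the muscle-type members in 6 actomyosin gene families, in percent of the family's summed CPM per kb of exon on a log axis; points are the 9 libraries and bars are means of 3. The 1-1 KO share is the lowest in all 6 families, from 0.0062% against 0.31% in WT for the actins to 50.3% against 58.2% for the tropomyosins.

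The ubiquitous actomyosin genes also were lower in 1-1 KO, by smaller factors. Of 14, 13 were downregulated, 4 of them by over 1 on the log2 scale, and ACTB did not pass the test, with a median log2 fold change of -0.55 over the group. In 1-2 KO, 5 were upregulated, 4 were downregulated and 5 did not pass the test, with a median of 0.04. Among all tested genes, 30.9% were downregulated in 1-1 KO, and 3.97% fell by over 1. The shares of all in 1-2 KO were 28.1% upregulated and 26.2% downregulated. FLNA, the filamin that cross-links actin filaments at the cell cortex and on integrins, had the lowest fold change of the group. Its promoter is shown as the start of the most strongly lowered ubiquitous gene, on the minus strand of chromosome X at chrX:154374635-154374884, with a CArG box in capitals 94 bases before the start.
FLNA: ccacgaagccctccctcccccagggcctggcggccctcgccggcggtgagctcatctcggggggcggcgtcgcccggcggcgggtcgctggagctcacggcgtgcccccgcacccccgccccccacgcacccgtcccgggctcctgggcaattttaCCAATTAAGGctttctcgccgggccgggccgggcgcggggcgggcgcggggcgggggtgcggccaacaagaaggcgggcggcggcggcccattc
FLNA was at 2520, 2420 and 2710 CPM in WT, at 989, 1020 and 976 CPM in 1-1 KO and at 2710, 2610 and 2600 CPM in 1-2 KO. It was 2.56-fold lower in 1-1 KO than in WT (log2 -1.36 ± 0.04, adjusted p = 6.57e-12), and its 1-2 KO libraries overlapped WT (log2 0.05, 95% interval -0.04 to 0.14). ACTG1, ACTN1, CNN2 and TPM4 also held a CArG box in a window of this length, although ACTN1 and TPM4 had other windows without it. It was thus found in 5 of the 13 ubiquitous genes with a promoter in the table. Counted by promoter, it was in 20.0% of their 25, against 1.16% of all promoters. ACTB was not in the table.

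The cytoplasmic actins differed from each other. ACTG1, or gamma-actin, was at 2820, 2720 and 2850 CPM in WT and at 1860, 1840 and 1890 CPM in 1-1 KO (log2 -0.58 ± 0.03, adjusted p = 2.09e-09), and in 1-2 KO at 2710, 2740 and 2740 CPM (log2 -0.03, adjusted p = 0.407). ACTB, or beta-actin, was at 3910, 3740 and 4400 CPM in WT and at 3810, 3900 and 3790 CPM in 1-1 KO, a log2 fold change of -0.07 with a 95% interval of -0.21 to 0.07 (adjusted p = 0.385). It rose in 1-2 KO to 5390, 4520 and 4610 CPM (log2 0.27 ± 0.07, adjusted p = 0.00331), where replicate 1 was the highest. The genes around ACTB and ACTG1 were themselves higher in 1-1 KO, the 50 neighbouring genes having a median log2 fold change of 0.50 and 0.43. Relative to these neighbours ACTB fell by 0.57 in 1-1 KO (adjusted p = 5.06e-06) and ACTG1 fell by 1.02 (adjusted p = 1.03e-11).

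The non-muscle myosin heavy chains, the motors of the stress fibers, separated the knockouts. MYH9 was at 2290, 2250 and 2460 CPM in WT, at 1130, 1170 and 1110 CPM in 1-1 KO and at 2540, 2620 and 2610 CPM in 1-2 KO. It was 2.05-fold lower in 1-1 KO (adjusted p = 4.91e-11) and 1.11-fold higher in 1-2 KO (adjusted p = 0.00552). The genes around MYH9 had a median of 0.15 in 1-2 KO as well, and relative to them it did not pass the test (0.00, adjusted p = 0.967). MYH10 moved from 421 ± 4.73 CPM to 305 ± 7.67 in 1-1 KO and to 572 ± 27.9 in 1-2 KO (adjusted p = 1.32e-07 and 3.26e-07). The light chain genes MYL6 and MYL12A fell in both knockouts, with log2 fold changes of -0.34 and -0.19 in 1-1 KO and -0.21 and -0.13 in 1-2 KO. Of the actin cross-linkers, ACTN1 fell by 1.12 on the log2 scale in 1-1 KO and stood at 0.03 in 1-2 KO (adjusted p = 0.609), whereas ACTN4 fell by 0.44 and rose by 0.29. MYL6 shares 719 exonic bases with SMARCC2 on the opposite strand.

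CNN2 and TPM3 were lower in both knockouts. CNN2, a calponin of non-muscle cells, was at 554 ± 16.8 CPM in WT, 261 ± 4.25 in 1-1 KO and 382 ± 7.09 in 1-2 KO (log2 -1.09 and -0.53, adjusted p = 7.23e-12 and 1.15e-08). TPM3 was at 790 ± 17.1, 399 ± 12.6 and 611 ± 16.7 CPM (log2 -0.99 and -0.37, adjusted p = 3.38e-11 and 9.42e-07). The genes around TPM3 on chromosome 1 were lower as well, with a median log2 fold change of -0.68 in 1-1 KO and -0.26 in 1-2 KO. Relative to them TPM3 fell by 0.31 in 1-1 KO (adjusted p = 5.56e-06) and by 0.11 in 1-2 KO (adjusted p = 0.0174). TPM4 fell by 0.51 in 1-1 KO and rose by 0.13 in 1-2 KO, and TAGLN2 fell by 0.80 in 1-1 KO and stood at 0.05 in 1-2 KO. CNN3 was only slightly lower in 1-1 KO (log2 -0.11 ± 0.04, adjusted p = 0.0325), and this call was lost in 5 of 9 fits with 1 library left out, namely without WT replicate 2 or 3 or any 1-1 KO replicate (adjusted p between 0.0622 and 0.183). Relative to its neighbours CNN3 was higher in 1-1 KO (0.12, adjusted p = 0.0254).

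All 5 adhesion adaptors were downregulated in 1-1 KO, the median log2 fold change being -0.99, and in 1-2 KO 2 were upregulated, 1 was downregulated and 2 did not pass the test, with a median of 0.03. The shares of all tested genes were 30.9% downregulated in 1-1 KO, and 28.1% upregulated and 26.2% downregulated in 1-2 KO. ZYX encodes zyxin, a LIM protein that gathers at adhesions under tension. It was at 329, 302 and 356 CPM in WT, at 97.9, 98.8 and 92.5 CPM in 1-1 KO and at 355, 317 and 331 CPM in 1-2 KO. The 1-1 KO libraries were 3.41-fold lower than WT on average (log2 -1.77 ± 0.06, adjusted p = 1.02e-11), and the 1-2 KO libraries overlapped WT (log2 0.03, 95% interval -0.10 to 0.15). LIMA1, or EPLIN, which bundles and stabilizes actin filaments, was at 328, 333 and 323 CPM in WT, at 113, 110 and 113 CPM in 1-1 KO and at 292, 321 and 316 CPM in 1-2 KO. It was 2.93-fold lower in 1-1 KO (log2 -1.55 ± 0.04, adjusted p = 9.66e-13). Its difference of -0.08 in 1-2 KO did not pass the test (adjusted p = 0.0852), although it did without WT replicate 3 (-0.11, adjusted p = 0.0252) or 1-2 KO replicate 2 (-0.11, adjusted p = 0.042).

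Vinculin, talin and paxillin link integrins to actin, and their genes fell by similar amounts in 1-1 KO. VCL (vinculin) was at 591 ± 10.9 CPM in WT and 298 ± 8.69 in 1-1 KO (log2 -0.99 ± 0.04), TLN1 (talin 1) at 738 ± 26.4 and 467 ± 19.8 (log2 -0.66 ± 0.05), and PXN (paxillin) at 55.7 ± 3.64 and 30.5 ± 2.42 (log2 -0.87 ± 0.06). The largest adjusted p of these was 1.74e-08. In 1-2 KO TLN1 rose to 847 ± 42.3 CPM (log2 0.20 ± 0.05, adjusted p = 0.00186). VCL was slightly lower there (log2 -0.12, adjusted p = 0.024), but not without 1-2 KO replicate 1 (-0.08, adjusted p = 0.0595). PXN was slightly higher (log2 0.15, adjusted p = 0.0455), and this call was lost without WT replicate 2 or 3, 1-1 KO replicate 1 or any 1-2 KO replicate (adjusted p between 0.0543 and 0.206). PXN shares 1769 exonic bases with PXN-AS1 and VCL shares 1109 with AP3M1, both on the opposite strand, and whether counting used the strand is not given in the sources used here.

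SRF and both MRTF cofactors were lower in 1-1 KO. The SRF promoter is shown because SRF acts on its own gene through CArG boxes. It lies on the plus strand of chromosome 6 at chr6:43171019-43171268, and capitals mark the CArG boxes that begin 30 and 10 bases before the start.
SRF: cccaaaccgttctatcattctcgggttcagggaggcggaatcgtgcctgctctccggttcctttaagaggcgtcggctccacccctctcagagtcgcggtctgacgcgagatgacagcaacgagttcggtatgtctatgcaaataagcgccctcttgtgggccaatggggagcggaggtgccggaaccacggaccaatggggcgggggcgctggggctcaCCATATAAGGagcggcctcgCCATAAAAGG
SRF was at 82.0, 81.4 and 91.4 CPM in WT, at 50.7, 55.8 and 48.4 CPM in 1-1 KO and at 86.5, 82.9 and 87.3 CPM in 1-2 KO. It was 1.65-fold lower in 1-1 KO than in WT, without overlap (log2 -0.72 ± 0.06, adjusted p = 5.76e-08), whereas the 1-2 KO libraries overlapped WT (log2 0.01, 95% interval -0.11 to 0.13). The neighbours of SRF had a median of -0.27 in 1-2 KO, and relative to them it was higher (0.28, adjusted p = 0.00066). MRTFA fell from 36.5 ± 3.71 to 29.0 ± 1.08 CPM in 1-1 KO (log2 -0.33 ± 0.07, adjusted p = 0.000592) and was at 37.3 ± 1.54 CPM in 1-2 KO (adjusted p = 0.679). MRTFB fell from 45.1 ± 0.25 to 39.2 ± 0.72 CPM in 1-1 KO (log2 -0.20 ± 0.04, adjusted p = 0.00086) and rose to 49.8 ± 2.21 CPM in 1-2 KO (log2 0.14 ± 0.04, adjusted p = 0.0117). The MRTFB call in 1-2 KO was lost without 1-2 KO replicate 2 (0.11, adjusted p = 0.0555), and relative to its neighbours MRTFB did not pass the test in 1-1 KO (-0.09, adjusted p = 0.0745). Activity of SRF and MRTF depends on where the cofactors are in the cell, which mRNA levels do not measure.

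The YAP genes moved the other way in 1-1 KO. All 3 were upregulated, and in 1-2 KO 1 was upregulated and 2 did not pass the test. Upregulation was called for 32.5% of all tested genes in 1-1 KO and for 28.1% in 1-2 KO. WWTR1, which encodes TAZ, was at 25.7, 24.9 and 24.0 CPM in WT, at 43.0, 41.2 and 42.4 CPM in 1-1 KO and at 22.5, 24.4 and 21.9 CPM in 1-2 KO. The 1-1 KO libraries were 1.70-fold higher than WT (log2 0.76 ± 0.05, adjusted p = 1.5e-08), and the genes around WWTR1 had a median log2 fold change of 0.37, relative to which it was higher by 0.40 (adjusted p = 1.49e-05). WWTR1 did not pass the test in 1-2 KO (log2 -0.12, adjusted p = 0.082), but did without WT replicate 3 (-0.16, adjusted p = 0.0312) or 1-2 KO replicate 2 (-0.16, adjusted p = 0.0248). YAP1 rose from 136 ± 2.92 to 169 ± 3.52 CPM in 1-1 KO (log2 0.32 ± 0.04, adjusted p = 2.1e-06). It was at 147 ± 4.27 CPM in 1-2 KO (log2 0.11, adjusted p = 0.0148), a call that was lost without WT replicate 3 (0.08, adjusted p = 0.0837) or 1-2 KO replicate 2 (0.09, adjusted p = 0.0634). TEAD1, their DNA-binding partner, rose from 106 ± 4.27 to 120 ± 2.70 CPM in 1-1 KO (log2 0.17 ± 0.04, adjusted p = 0.00146) and was at 108 ± 3.65 CPM in 1-2 KO. Relative to its neighbours TEAD1 did not pass the test in 1-1 KO (0.04, adjusted p = 0.423).

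The 4 YAP targets differed in direction from each other in both knockouts. In 1-1 KO 1 was upregulated, 1 was downregulated and 2 did not pass the test, with a median log2 fold change of -0.02, and in 1-2 KO 1 was upregulated, 2 were downregulated and 1 did not pass the test, with a median of 0.00. The promoters of CCN2 and ANKRD1 are shown as those of the 2 targets in which the TEAD motif GGAATG occurred more than once. Both lie on the minus strand, CCN2 at chr6:131951373-131951622 and ANKRD1 at chr10:90921088-90921337, and capitals mark GGAATG on either strand.
CCN2: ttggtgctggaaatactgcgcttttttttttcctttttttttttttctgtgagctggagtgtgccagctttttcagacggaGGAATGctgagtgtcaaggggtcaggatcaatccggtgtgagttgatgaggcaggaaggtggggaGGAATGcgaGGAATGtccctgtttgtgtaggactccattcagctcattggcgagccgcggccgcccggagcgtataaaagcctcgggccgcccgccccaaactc
ANKRD1: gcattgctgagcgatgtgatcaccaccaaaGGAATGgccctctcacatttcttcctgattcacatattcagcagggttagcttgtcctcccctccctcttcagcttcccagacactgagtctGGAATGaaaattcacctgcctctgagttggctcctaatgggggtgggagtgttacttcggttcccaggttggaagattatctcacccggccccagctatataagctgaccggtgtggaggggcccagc
GGAATG, searched on both strands, was found in 11.9% of all 34943 promoters, in 27.1% of the 70 promoters of the 41 genes described here that were in the table, and in all 3 YAP targets in the table, with 3 in CCN2, 2 in ANKRD1 and 1 in AMOTL2. None of these 3 held an exact CArG box, which was found in 12.9% of the 70 promoters. CCN1 and TEAD1 were not in the table. Several genes have more than 1 start site in it, and these can share bases.

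CCN1, a secreted matricellular protein also called CYR61, was the YAP target that fell in both knockouts. It was at 201, 206 and 213 CPM in WT, at 146, 148 and 151 CPM in 1-1 KO and at 164, 160 and 152 CPM in 1-2 KO, with both knockouts below WT (log2 -0.48 ± 0.04 and -0.38 ± 0.04, adjusted p = 6.17e-08 and 8.36e-07). Relative to its neighbours, which had a median of -0.30 in 1-2 KO, CCN1 did not pass the test (-0.08, adjusted p = 0.083). CCN2, or CTGF, was at 280, 278 and 284 CPM in WT, at 266, 271 and 265 CPM in 1-1 KO and at 257, 265 and 253 CPM in 1-2 KO. These small differences passed the test in 1-2 KO (log2 -0.12 ± 0.03, adjusted p = 0.0067) and missed it in 1-1 KO (log2 -0.07 ± 0.03, adjusted p = 0.0692), where CCN2 passed without 1-2 KO replicate 1 (-0.07, adjusted p = 0.0386). ANKRD1, a cardiac and skeletal muscle repeat protein induced by stretch, was at 236 ± 4.0 CPM in WT, 242 ± 13.6 in 1-1 KO and 257 ± 23.3 in 1-2 KO and passed the test in neither (adjusted p = 0.62 and 0.0917). Without 1-2 KO replicate 1 it passed in 1-2 KO (log2 0.18, adjusted p = 0.00845). AMOTL2, an angiomotin family protein that binds YAP, rose in both, from 124, 126 and 144 CPM in WT to 163, 165 and 161 CPM in 1-1 KO and 171, 163 and 164 CPM in 1-2 KO (log2 0.31 ± 0.05 and 0.34 ± 0.05, adjusted p = 6.4e-05 and 4.02e-05). Its neighbours had a median of 0.32 in 1-1 KO, relative to which it did not differ by the test (-0.004, adjusted p = 0.951).

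**Figure D4:**
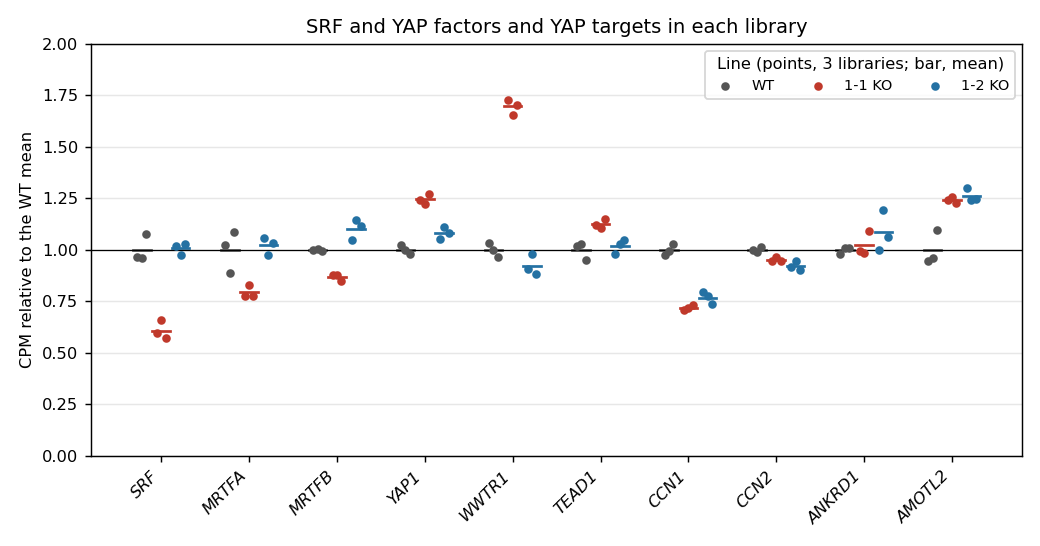
Level of SRF, its cofactors, YAP1, WWTR1, TEAD1 and the 4 YAP targets in each library, as CPM divided by the WT mean of the gene; points are the 9 libraries, bars are means of 3 and the line at 1 is WT. In 1-1 KO the SRF and MRTF genes lie below WT and YAP1, WWTR1 and TEAD1 above it, with WWTR1 at 1.70 times WT, whereas CCN1 lies below WT in both knockouts and AMOTL2 above it in both.

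The ROCK kinases, which activate myosin II, differed from each other in 1-1 KO. ROCK2 was at 162, 167 and 157 CPM in WT and at 99.3, 99.5 and 98.3 CPM in 1-1 KO (log2 -0.71 ± 0.04, adjusted p = 5.35e-10), whereas ROCK1 was at 199, 202 and 195 CPM in WT and at 205, 208 and 207 CPM in 1-1 KO (log2 0.06 ± 0.03, adjusted p = 0.14). RHOA, a small GTPase that activates them, fell from 512 ± 2.69 to 406 ± 9.5 CPM (log2 -0.34 ± 0.03, adjusted p = 9.68e-07), and CFL1, which encodes the actin-severing protein cofilin, from 1033 ± 34.7 to 687 ± 12.6 CPM (log2 -0.59 ± 0.04, adjusted p = 4.3e-09). RHOB did not pass the test in 1-1 KO (log2 -0.10, adjusted p = 0.285). DIAPH3, a formin that nucleates actin filaments, was slightly higher in 1-1 KO (log2 0.10 ± 0.04, adjusted p = 0.0188), but not without WT replicate 1 or 1-1 KO replicate 1 or 3 (adjusted p between 0.0543 and 0.0647), and relative to its neighbours it was lower (-0.16, adjusted p = 0.00138).

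For PFN1 and RHOB, replicate 1 of 1-2 KO was the highest of the 9 libraries. PFN1, which encodes the actin monomer-binding protein profilin, was at 488, 516 and 597 CPM in WT, at 383, 402 and 378 CPM in 1-1 KO and at 779, 480 and 514 CPM in 1-2 KO. It fell in 1-1 KO (log2 -0.46 ± 0.13, adjusted p = 0.00818), and in 1-2 KO it did not pass the test (log2 0.15, 95% interval -0.14 to 0.43), with a value of -0.10 without replicate 1 of that line. RHOB was at 247, 204 and 199 CPM in 1-2 KO and at 166, 180 and 203 CPM in WT, with overlap, and its call (log2 0.25, adjusted p = 0.0155) was lost without 1-2 KO replicate 1 (0.14, adjusted p = 0.0602), WT replicate 1 (0.18, adjusted p = 0.0793) or WT replicate 2 (0.23, adjusted p = 0.0544). ROCK2 was slightly lower in 1-2 KO (log2 -0.10, adjusted p = 0.0306), which did not hold without WT replicate 1 or 2 or 1-2 KO replicate 1 or 3 (adjusted p between 0.0545 and 0.12). RHOA, ROCK1, CFL1 and DIAPH3 did not pass the test in 1-2 KO, with log2 fold changes between -0.07 and 0.02.

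Directly compared, 1-2 KO had higher levels than 1-1 KO for 36 of the 46 genes and lower levels for 3, and 7 did not pass the test, where 33.1% of all tested genes were higher and 32.2% lower and 65.3% passed the test. By over 1 on the log2 scale, 14 were higher and 0 lower, where 7.33% and 6.81% of tested genes were. The median log2 difference was 0.62, with 0.01 for all tested genes, and the libraries of the knockouts did not overlap for 41 of the 46 genes, where 69.8% of tested genes did not overlap. All 10 muscle-type genes and all 5 adaptors were higher in 1-2 KO, by a median of 2.43 and 1.01. TAGLN, ACTA2 and ACTG2 had the largest differences, at 84.8-fold, 77.6-fold and 71.5-fold. The 3 lower genes were YAP1, WWTR1 and TEAD1, with log2 differences of -0.21, -0.88 and -0.15. The smallest called differences were those of MYL6 (0.13, adjusted p = 0.0344) and CCN1 (0.10, adjusted p = 0.0371). That of MYL6 was lost without WT replicate 3, any 1-1 KO replicate or 1-2 KO replicate 2 or 3 (adjusted p between 0.0502 and 0.162), and that of CCN1 without WT replicate 3, 1-1 KO replicate 1 or 2 or 1-2 KO replicate 1 or 2 (adjusted p between 0.0842 and 0.131). MYL12A (0.09, adjusted p = 0.0225) and ANKRD1 (0.14, adjusted p = 0.0222) passed the test without 1-2 KO replicate 1, and DIAPH3 without WT replicate 3 (-0.10, adjusted p = 0.0123). The knockouts share their WT libraries, and their calls against WT fell into the following classes. The share of all tested genes in each class was not counted. Both calls were down for 9 genes and up for 2, 12 genes were down in 1-1 KO and up in 1-2 KO, and 15 were down in 1-1 KO and not called in 1-2 KO. The others were 3 genes up in 1-1 KO and not called in 1-2 KO, 3 called in 1-2 KO and not in 1-1 KO, and 2 called in neither.

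The values of several genes moved with those of the genes around them on the chromosome. The median log2 fold change of the 50 neighbouring tested genes lay between -0.68 (TPM3) and 0.50 (CNN1) over the 46 genes in 1-1 KO, and between -0.39 (CNN3) and 0.23 (ZYX) in 1-2 KO. Relative to these medians, 38 genes were downregulated and 4 upregulated in 1-1 KO, as were 12 and 13 in 1-2 KO. On this scale 5015 of all 17207 tested genes were downregulated and 4922 upregulated in 1-1 KO, and 4544 and 4362 in 1-2 KO. In 1-2 KO the calls of ACTB, MYL6, MYH9, TPM4, VCL, PXN, YAP1, CCN1, CCN2 and RHOB did not hold relative to neighbours (adjusted p between 0.052 and 0.967). All 10 muscle-type genes and all 5 adaptors were downregulated in 1-1 KO on this scale too, with medians of -2.71 and -0.80. Whether copy number differed between the lines was not tested.

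The other genes of these pathways, in 4 lists, were less uniform than the genes described above. Of all tested genes, 30.9% were downregulated and 32.5% upregulated in 1-1 KO, and 26.2% and 28.1% in 1-2 KO. Of 21 tested smooth muscle and SRF target genes, 12 were downregulated and 3 upregulated in 1-1 KO, whereas 12 were upregulated and 3 downregulated in 1-2 KO, with medians of -0.24 and 0.27. LMOD1 and MYOCD of this list did not pass the filter on low counts. FHL1, a LIM protein of striated muscle, was at 2.68 ± 0.17 CPM in WT, 0.44 ± 0.04 in 1-1 KO and 23.5 ± 2.06 in 1-2 KO (adjusted p = 3.68e-09 and 3.32e-12). ACTA1, the skeletal actin, was at 0.68 ± 0.36, 0.11 ± 0.07 and 2.57 ± 0.02 CPM, and its summed counts were 6.12-fold lower in 1-1 KO than in WT, with an exact interval of 3.43 to 11.7. ACTC1, the cardiac actin, had 0 counts in each 1-1 KO library and, taking 3 counts per library as the floor, was at least 28.1-fold lower there than in 1-2 KO. CSRP2 rose in both (log2 0.72 and 0.55) and SMTN in 1-1 KO (log2 0.25). PDLIM5 fell in both (log2 -0.23 and -0.36).

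Of 28 tested focal adhesion genes, 14 were downregulated and 8 upregulated in 1-1 KO, at a median of -0.13, whereas 12 were upregulated and 7 downregulated in 1-2 KO, at a median of 0.10. The test was passed by 78.6% of them in 1-1 KO and 67.9% in 1-2 KO, where 63.4% and 54.4% of all tested genes passed. CAPN2, a calpain that cleaves talin, fell in both (log2 -1.45 and -1.26), as did RSU1 (log2 -1.33 and -0.38). FERMT1, the kindlin of epithelial cells, rose from 0.78 ± 0.13 CPM to 3.93 ± 0.11 in 1-1 KO and 1.23 ± 0.19 in 1-2 KO. LIMS2 and PARVB, whose products belong to the complex of the integrin-linked kinase, fell in 1-1 KO (log2 -0.32 and -0.51) and rose in 1-2 KO (log2 1.52 and 1.40). NEDD9 fell in 1-2 KO (log2 -0.43), and EVL rose in both (log2 0.50 and 1.2). Relative to their neighbours, EVL did not pass the test in 1-1 KO (0.10, adjusted p = 0.527), nor did RSU1 (-0.09, adjusted p = 0.0508) and NEDD9 (-0.10, adjusted p = 0.0846) in 1-2 KO.

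Of 20 other YAP targets, 7 fell and 7 rose in 1-1 KO, at a median of 0.04, and 5 fell and 12 rose in 1-2 KO, at a median of 0.26. Of all tested genes, 30.9% fell and 32.5% rose in 1-1 KO, and 26.2% fell and 28.1% rose in 1-2 KO. The even split in 1-1 KO was thus also that of all tested genes. CCDC80 (log2 2.61 and 1.90) and IGFBP3 (log2 1.65 and 0.85) rose in both, whereas TGFB2 fell in both (log2 -1.39 and -0.75). NT5E rose in 1-1 KO and fell in 1-2 KO (log2 1.98 and -0.66), RBMS3 fell in 1-1 KO (log2 -2.25) and DOCK5 in 1-2 KO (log2 -0.68). Of 24 tested Hippo pathway and TEAD genes, 9 fell and 9 rose in 1-1 KO, and 2 fell and 10 rose in 1-2 KO, with medians of 0.05 and 0.10. The test was passed by 75% of them in 1-1 KO and 50% in 1-2 KO, where 63.4% and 54.4% of all tested genes passed. AMOT, the angiomotin that holds YAP outside the nucleus, was at 3.25 ± 0.33 CPM in WT, 22.7 ± 0.39 in 1-1 KO and 76.8 ± 4.55 in 1-2 KO (adjusted p = 1.42e-12 and 8.29e-15). VGLL3, a cofactor of TEAD, rose in 1-2 KO from 3.46 ± 0.29 to 34.6 ± 1.15 CPM. Of the atypical cadherins, DCHS1 rose in both (log2 1.29 and 3.19), and FAT4 rose in 1-1 KO and fell in 1-2 KO (log2 0.68 and -0.16), the latter not without WT replicate 2 or 1-2 KO replicate 1 (adjusted p up to 0.0794). TEAD3 fell in 1-1 KO (log2 -1.03), the kinase gene TAOK3 fell in 1-1 KO and rose in 1-2 KO (log2 -0.34 and 0.22), and the Hippo activator NF2 fell in both (log2 -0.19 and -0.34). Relative to their neighbours, TAOK3 (0.02, adjusted p = 0.654) and NF2 (-0.03, adjusted p = 0.71) did not pass the test in 1-1 KO.

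**Figure D5:**
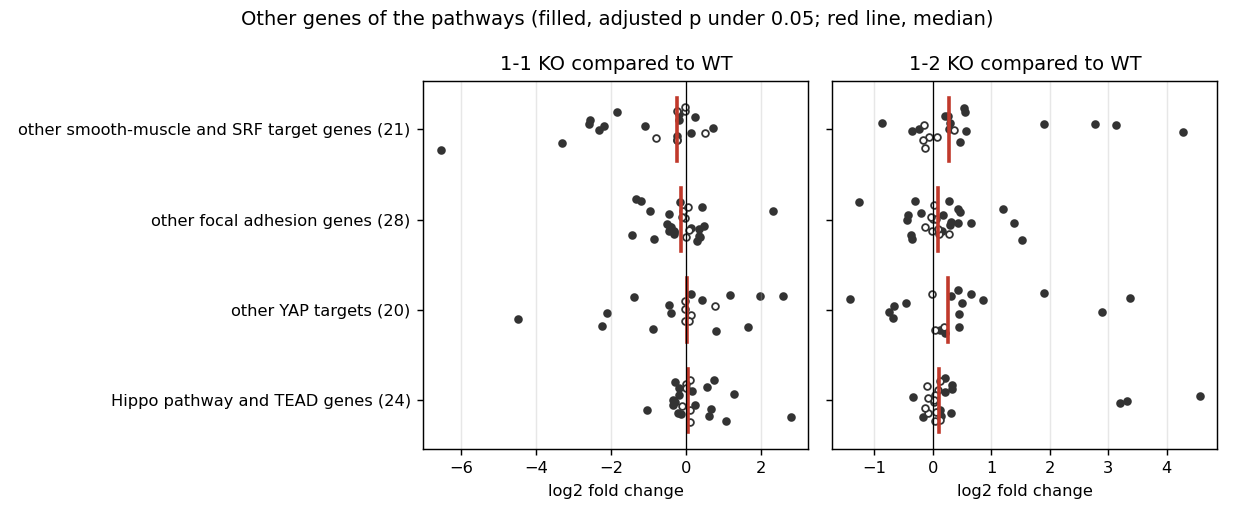
Log2 fold change of the tested genes of 4 lists of other pathway genes in 1-1 KO (left) and 1-2 KO (right) compared to WT; each point is a gene, filled where the adjusted p was under 0.05, and red lines are list medians. The horizontal scales differ, and the medians lie between -0.24 (smooth muscle and SRF targets) and 0.05 (Hippo pathway) on the left and between 0.10 and 0.27 on the right. ACTC1 (-6.55 on the left) and FJX1 (-2.11), a YAP target, were at the floor in 1-1 KO, so that their fitted values are no measure of size.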

How the data were processed

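Stranded TruSeq mRNA libraries were made by the authors from total RNA of the 3 Huh-7 lines. They mapped the read pairs with STAR to hg38 (annotation version 104) and obtained counts for each gene by featureCounts. The deposited values are whole read counts without normalization. Strand setting, handling of reads with several matches and tool versions are not given in the sources used here. Symbols and positions came from GENCODE 44 (GRCh38), which held 60463 of the 60664 gene identifiers, and promoters from RefSeq (GRCh38.p14).

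Counts were analysed in R 4.3.3 with edgeR 4.0.16, using filterByExpr (minimum count 10, minimum total 15), TMM normalization and 1 quasi-likelihood fit of all 9 libraries. Adjustment over the 17207 genes of each of 3 comparisons followed Benjamini and Hochberg, with a threshold of 0.05. Standard errors were derived from the fold change and the F statistic, and levels are CPM with TMM library sizes. For ACTG2 and ACTA2 in 1-1 KO, intervals from these errors were narrower than counting error alone, and the errors are not printed. A gene with at most 3 counts in every library of a line was treated as at the floor there, and fold changes against it are lower bounds. The CPM per kb used the merged length of all annotated exons. Intervals of summed counts are exact (Clopper-Pearson). The fit was tested on simulated data.

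The alternatives were DESeq2 1.42.0 with all libraries or only those compared, its size factors in edgeR, library size alone, other filters on low counts, a fit of only the lines compared, the replicate number as a block, a threshold of 0.01, an offset by the median of 50 neighbouring genes, and fits without each library in turn. The 46 genes and the lists were chosen with earlier results of these data known. From the 4 lists of other genes, those named are the 2 most strongly upregulated and the 2 most strongly downregulated per knockout among called genes with 1 CPM or more on average over the 9 libraries and no overlap between the 3 knockout and 3 WT libraries, except 1 gene that is not reported here, together with ACTC1 and FJX1, which were chosen after their values were seen. Promoters of genes outside the muscle-type group were also chosen after values were seen.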

Additional observations from a re-analysis of the deposited data

Results flagged for a closer look

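For 12 of the 46 genes the knockouts were called in opposite directions, downregulated in 1-1 KO and upregulated in 1-2 KO. The share of all tested genes with such opposite calls was not counted. The 12 genes also passed edgeR's quasi-likelihood test of 1-2 KO compared to 1-1 KO. That contrast comes from the same fit and spans both calls, so that genes picked by opposite calls were nearly bound to pass it. Its adjusted p is therefore no separate support. The log2 difference, 1-2 KO minus 1-1 KO, was 6.41 for TAGLN, 6.23 for ACTA2, 4.50 for MYL9, 1.16 for TPM1 and 0.58 for MYLK among the muscle-type genes. Among the ubiquitous genes it was 1.18 for MYH9, 0.91 for MYH10, 0.73 for ACTN4 and 0.64 for TPM4, and among the adaptors it was 1.01 for PXN and 0.86 for TLN1. For MRTFB it was 0.34. The adjusted p of the difference was 5.96e-06 for MRTFB and smaller for the other 11. Relative to neighbours, the upregulation of MYH9, TPM4 and PXN in 1-2 KO did not pass edgeR's test (adjusted p = 0.967, 0.476 and 0.305). The downregulation of MRTFB in 1-1 KO did not pass it either (adjusted p = 0.0745). The upregulation of PXN and MRTFB in 1-2 KO, which is 1 side of this contrast, was lost in some fits with 1 library left out, as given above, whereas their difference between the knockouts passed the test in all 9 such fits (adjusted p up to 9.64e-08 and 8.4e-05).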

How the results depend on the processing

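With 3 libraries of 1 line per group, the spread measured is that between libraries. Under library size alone, 6 of the 46 genes in place of 10 were downregulated in 1-2 KO compared to WT. The other counts of upregulated and downregulated genes stayed within 1.5 times their value under all alternatives. With 1 library left out they were between 4 and 5 upregulated and between 35 and 37 downregulated in 1-1 KO, between 13 and 16 and between 8 and 12 in 1-2 KO, and between 34 and 37 higher and 3 and 4 lower in 1-2 KO compared to 1-1 KO. Same-numbered libraries of different lines had correlations of their deviations between -0.187 and 0.0474, so that the numbers do not pair the libraries. A replicate block gave 5 upregulated and 35 downregulated genes for 1-1 KO and 15 and 10 for 1-2 KO, with 34 higher and 3 lower in 1-2 KO compared to 1-1 KO. Among values called in the reported fit or in the alternative, a sign turned under the neighbour offset and under no other alternative. In 1-1 KO these were CNN3 (0.116), AMOTL2 (-0.004), ROCK1 (-0.232) and DIAPH3 (-0.16), in 1-2 KO CNN3 (0.34), VCL (0.103), ZYX (-0.203) and CCN2 (0.073), and in 1-2 KO compared to 1-1 KO TEAD1 (0.041), CCN2 (0.167), ROCK1 (0.182) and DIAPH3 (0.126). Requiring 10 counts or more in each library removed ACTG2 and ACTA2, which then have no value. Over all alternatives the call of 10 genes changed at least once in 1-1 KO, of 28 in 1-2 KO and of 10 in 1-2 KO compared to 1-1 KO.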
